A study of Mus musculus with 2 samples.

Results

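The 37 genes described here are expressed by the endothelium of blood and lymphatic vessels or encode the factors that act on it. They were taken from a list of endothelial and angiogenic genes, and each was read from the probe sets that the array annotation assigns to that gene alone. All 37 were found among 18193 annotated genes, with 69 probe sets between them. RNA was measured in the vagina of female C57/Bl6 mice aged 6 months, with 1 Affymetrix array for *Fbln5*-/- mice, which lack fibulin-5, an organizer of elastic fibers, and 1 array for wild type (WT) mice. Animals of both genotypes had been ovariectomized (on 11 d in the sample labels, while the methods and the series text time it otherwise) and then received estradiol at 50 µg/kg/d for 3 d. The methods name 2 animals in each group and do not say whether RNA was pooled. With 1 array per genotype there were no replicates, so no difference below could be set against the spread between animals, and no p-value is given.

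Endothelial cells line every vessel. They are held together by junction proteins such as VE-cadherin, and they depend on VEGF ligands, which signal through the receptor tyrosine kinases VEGFR1 to VEGFR3, and on the angiopoietins, which signal through Tie2. Lymphatic vessels are a separate network, specified by the transcription factor Prox1 and driven to grow mainly by VEGF-C and VEGF-D through VEGFR3 and its co-receptor neuropilin-2. In the vaginal wall these vessels run through the stroma and muscularis beneath a stratified epithelium that estrogen maintains.

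Values are MAS5 signals, in arbitrary units, scaled so that both arrays had the same median. They compare the genotypes at 1 probe set and do not rank genes against each other. A gene was called measured when its brightest probe set reached a signal of 100 on at least 1 array, and a log2 ratio is that of *Fbln5*-/- over WT. Where 1 array was under 100, the fold is a bound against 100. *Fbln5* itself read 30.5 on the *Fbln5*-/- array and 410.5 on the WT array at its brighter probe set, at least 4.11-fold lower, and was under 100 on both arrays at the other. The control probe sets along *Gapdh* had log2 ratios of 0.05 at the 3′ end, −1.16 in the middle and −4.44 at the 5′ end, and those along *Actb* had −0.18, −1.22 and −1.87. Signal from 5′ parts of these transcripts was thus lower on the *Fbln5*-/- array. The positions of the members' probe sets within their transcripts were not analysed here, so the part of this in their lower values was not tested. In whole tissue, fewer cells of a type and less RNA per cell cannot be told apart.

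Most endothelial genes lay within 2-fold between the arrays. Of the 37 genes, 34 were measured. *Lyve1*, *Flt4* and *Vegfc* were higher by 2-fold or more in *Fbln5*-/- tissue, *Cd34* and *Eng* were at least 2-fold lower, and 29 lay within 2-fold. Across the 11936 genes measured on these arrays, 7.21% reached 2-fold in the upward direction and 4.78% in the downward direction. The shares among the measured members, 8.82% and 5.88%, were near these. With signals under 100 raised to 100, the members' counts were again 3 and 2, where 5.80% and 3.95% of all genes passed. The median log2 ratio was 0.42 for the members and 0.16 for all genes, and 24 of the 34 were above 0 (70.6%, compared with 63.6% of all genes). The split over all genes was 861 higher and 571 lower, and it turned to 679 and 698 when the arrays were scaled so that bright probe sets (no signal under 100) had a median ratio of 1. That scaling brought the median of all genes to 0.05 and that of the members to 0.31, a shift of all log2 ratios by about the same amount. *Erg* and *Vegfc* were measured through the *Fbln5*-/- array alone, so a higher value was the only direction open to them. When the log2 ratios of all probe sets of a gene past the filter were averaged, 0 members were at least 2-fold higher, and the median was 0.23 for the members and 0.09 for all genes. With the second brightest probe set of each gene, 0 members were at least 2-fold higher, and the medians were 0.14 and 0.09.

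**Figure D1:**
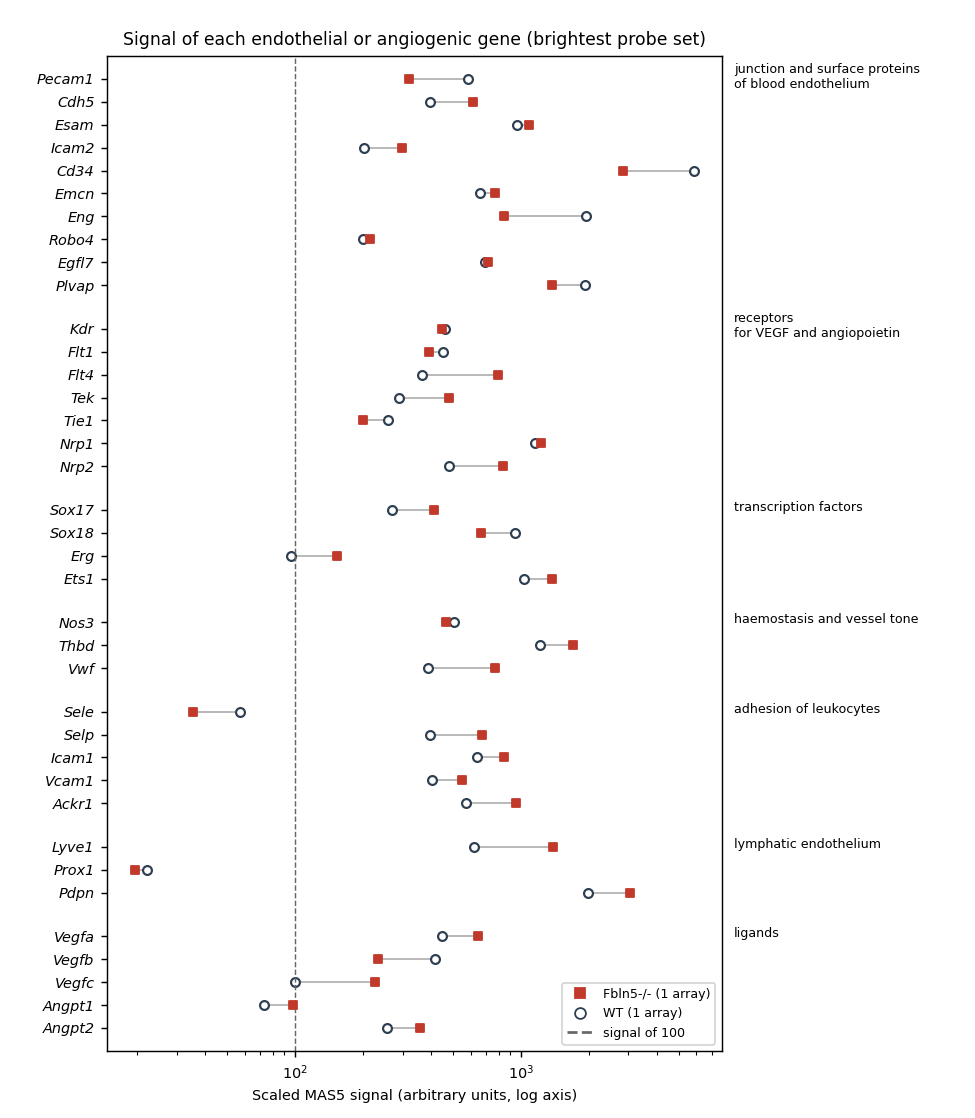
Scaled MAS5 signal (log axis) of the brightest probe set of each of the 37 genes, grouped by role, on the *Fbln5*-/- array (filled squares) and the WT array (open circles), 1 array each, with the signal of 100 as a dashed line. *Lyve1*, *Flt4* and *Vegfc* lie to the right in *Fbln5*-/-, *Cd34* and *Eng* to the left, and *Sele*, *Prox1* and *Angpt1* stay under 100 on both arrays.

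The genes of lymphatic vessels had the highest median log2 ratio of the 7 roles, 0.89 over the 2 that were measured. *Lyve1*, the hyaluronan receptor of lymphatic endothelium, had signals of 1385 on the *Fbln5*-/- array and 618 on the WT array (2.24-fold higher). Its second probe set also gave a higher value, 212 in *Fbln5*-/- and 123 in WT (log2 ratio 0.78). *Pdpn*, which encodes podoplanin, a mucin-type protein of lymphatic endothelium that fibroblasts and basal epithelium also make, had signals of 3047 in *Fbln5*-/- and 1982 in WT (log2 ratio 0.62). *Prox1*, the factor that sets lymphatic identity, was under 100 on both arrays at all 3 of its probe sets, with 22.1 as its highest signal. The most specific marker of these vessels was therefore not measured on either array.

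*Flt4* (VEGFR3), the receptor of VEGF-C and VEGF-D, had signals of 796 in *Fbln5*-/- and 365 in WT, 2.18-fold higher. Its other probe set did not show this, with 81.4 in *Fbln5*-/- and 104 in WT, at least 1.04-fold lower. *Nrp2*, the co-receptor neuropilin-2, was higher at each of its 3 measured probe sets, with 839 in *Fbln5*-/- and 481 in WT, 712 in *Fbln5*-/- and 380.1 in WT, and 559 in *Fbln5*-/- and 360.1 in WT (log2 ratios 0.80, 0.91 and 0.64). *Vegfc*, the ligand, had signals of 226 in *Fbln5*-/- and 99.9 in WT, at least 2.26-fold higher. A dimmer *Vegfc* probe set had 140.2 in *Fbln5*-/- and 107 in WT (log2 ratio 0.39), and the dimmest was under 100 on both arrays. Taking *Lyve1*, *Prox1*, *Pdpn*, *Flt4*, *Nrp2* and *Vegfc* together, a grouping made after the values were seen, 5 of 6 were measured, with log2 ratios of 0.62 to 1.18. The grouping takes in the 3 members called higher, so nothing is read from its contrast with the other members.

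*Vegfd*, the second ligand of VEGFR3, is not among the 37 genes and was singled out after its value was seen. It was higher at all 3 of its probe sets, with signals of 1871 in *Fbln5*-/- and 462 in WT (4.05-fold), 1078 in *Fbln5*-/- and 205 in WT (5.27-fold), and 825 in *Fbln5*-/- and 193 in WT (4.28-fold). Other genes of lymphatic endothelium, also named after their values were seen, were spread between the median of all genes and just under 2-fold, apart from *Nr2f2*. The brightest *Nr2f2* probe set had a log2 ratio of 0.04. The next had 248 in *Fbln5*-/- and 484 in WT (−0.96). Another had 0.72, and 1 measured through the *Fbln5*-/- array alone was at least 1.47-fold higher. *Reln*, the secreted protein reelin, had signals of 880.4 in *Fbln5*-/- and 465 in WT (log2 ratio 0.92). *Mmrn1*, multimerin-1, which platelets also hold, had 763 in *Fbln5*-/- and 537 in WT (0.51). *Foxc2*, a factor of lymphatic valves, had 174 in *Fbln5*-/- and 88.8 in WT (at least 1.74-fold higher). It was measured through the *Fbln5*-/- array alone, so only a higher value was open to it. *Stab1* had a log2 ratio of 0.34.

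Cells other than lymphatic endothelium make several of these genes, and the levels of their markers are given for that reason. Macrophages can carry *Lyve1*. Of 5 macrophage markers, all measured, 2 were at least 2-fold higher and 0 lower, namely *Mrc1* (log2 ratio 1.42), the mannose receptor, and *Cd163* (1.33), while *Csf1r* had 0.56 and *Cd68* had −0.03. The summed signal of the 5 was 7596 in *Fbln5*-/- and 4689 in WT. In this and the sums below, the brightest probe sets weigh most. All 4 fibroblast markers were within 2-fold, with sums of 39680.0 in *Fbln5*-/- and 30902 in WT and a median log2 ratio of 0.40. Of 8 adipocyte markers listed, 4 were measured and were counted as higher by 2-fold or more, where 7.21% of all genes were. Of the 4, 2 (*Retn* and *Ucp1*) were measured through the *Fbln5*-/- array alone, which left only that direction open. With 100 or more required on each array the count was 2. The list had sums of 7982 in *Fbln5*-/- and 2129.6 in WT, of which *Fabp4* alone gave 5705 and 1981. Among genes with no signal under 100, the highest log2 ratios were those of *Adipoq* (3.44) and *Fabp4* (1.53), which is also found in capillaries. Median log2 ratios of markers of other cells were 0.11 for epithelium, −0.29 for smooth muscle, 0.35 for skeletal muscle, 0.18 for other leukocytes and 0.82 for Schwann cells, and 0 erythrocyte markers were measured. The part of these cells in the values of *Lyve1*, *Pdpn*, *Vegfc* and *Vegfd* was not tested.

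Surface and junction proteins of blood endothelium lay on both sides of 0. All 10 were measured, and the median log2 ratio was 0.08. At least 2-fold higher were 0 and at least 2-fold lower 2 (0% and 20.0%, beside 7.21% and 4.78% of all genes). Shares of so few genes are coarse. *Cd34*, a sialomucin of capillaries that stromal fibroblasts and progenitor cells also carry, had signals of 2841 in *Fbln5*-/- and 5825 in WT at its only probe set (2.05-fold lower). *Eng*, endoglin, a TGF-β co-receptor of endothelial cells, had 839.5 in *Fbln5*-/- and 1952 in WT at its brighter probe set (2.32-fold lower). The other *Eng* probe set had 489.5 in *Fbln5*-/- and 490.3 in WT, so the lower value was seen at 1 of 2 probe sets. *Pecam1* (CD31), the classic junction marker of endothelium, had 321 in *Fbln5*-/- and 586 in WT at its only probe set (log2 ratio −0.87).

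The junction cadherin *Cdh5* (VE-cadherin), which is confined to endothelium, ran the other way, with 612 in *Fbln5*-/- and 397 in WT (log2 ratio 0.62). *Icam2*, a constitutive adhesion molecule of endothelial cells, had 297 in *Fbln5*-/- and 203 in WT (0.55). *Esam*, a tight junction adhesion molecule, had 1085 in *Fbln5*-/- and 964 in WT (0.17), and *Emcn*, endomucin of veins and capillaries, had 768 in *Fbln5*-/- and 662 in WT (0.21). *Robo4*, an endothelial roundabout receptor, had 216 in *Fbln5*-/- and 199.6 in WT (0.11). The 10 genes divided into 6 above 0 and 4 below it, where 63.6% of all genes were above 0, and *Robo4* lay under the median of all genes. *Plvap*, which forms the diaphragms of fenestrae, had 1380 in *Fbln5*-/- and 1925 in WT (−0.48). *Egfl7*, a secreted factor of endothelial cells, had 718.5 in *Fbln5*-/- and 698 in WT at its brightest probe set (0.04), and its 3 other probe sets had log2 ratios of −0.60, −0.12 and −0.28.

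Among the receptors for VEGF and angiopoietins, those of blood vessels lay within 2-fold at their brightest probe sets. All 7 were measured, and the median log2 ratio was 0.10. Of these, 1 was at least 2-fold higher (*Flt4*, above) and 0 were lower (14.3% and 0%, beside 7.21% and 4.78% of all genes). *Kdr* (VEGFR2), the main signalling receptor for VEGF-A, had signals of 448 in *Fbln5*-/- and 462 in WT (log2 ratio −0.04). *Flt1* (VEGFR1), which also has a soluble form that traps VEGF, had 394 in *Fbln5*-/- and 454 in WT at its brightest probe set (−0.20), and its 3 dimmer probe sets had log2 ratios of −0.44, 0.41 and 0.04. *Tek* (Tie2), the angiopoietin receptor, had 482 in *Fbln5*-/- and 289 in WT (0.74), while *Tie1*, its orphan partner, had 201 in *Fbln5*-/- and 259.9 in WT (−0.37). The 2 Tie receptors, each with 1 probe set, therefore lay on opposite sides of 0.

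*Nrp1*, neuropilin-1, the co-receptor of VEGFR2, had the widest range of log2 ratios among the members with several probe sets at 100 or more on each array. The brightest had signals of 1233 in *Fbln5*-/- and 1153 in WT (log2 ratio 0.10). The next had 599 in *Fbln5*-/- and 1328 in WT, 2.22-fold lower, and a dimmer one had 285 in *Fbln5*-/- and 774 in WT, 2.72-fold lower. The last was under 100 on both arrays. The direction for *Nrp1* thus depended on the probe set, and it is given here as unsettled.

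**Figure D2:**
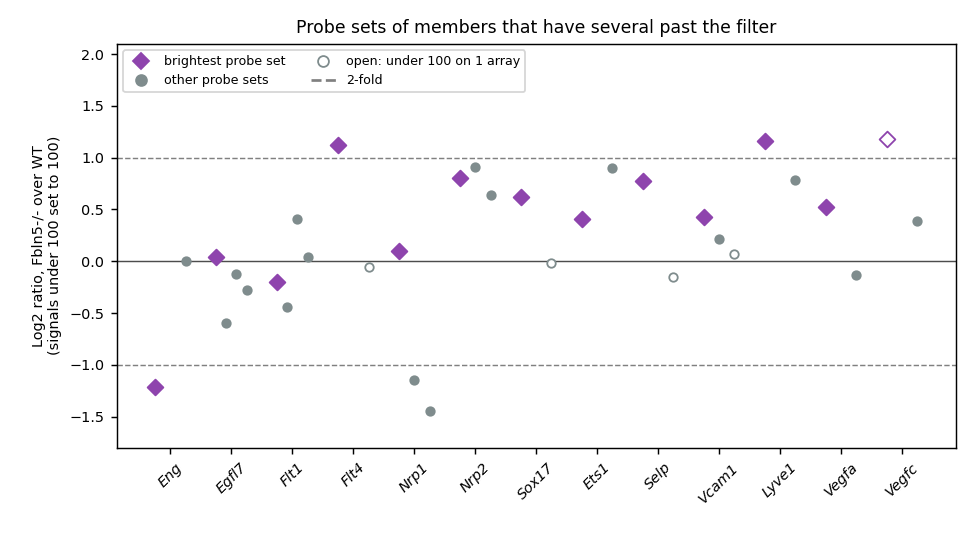
Ratio of the *Fbln5*-/- to the WT array, on the log2 scale, of every probe set past the filter in the 13 members that have several, with signals under 100 set to 100. Diamonds are brightest probe sets, circles the others, open symbols are under 100 on 1 array and dashed lines mark 2-fold. The 3 probe sets of *Nrp2* and both of *Lyve1* lie above 0, while those of *Eng*, *Flt4* and *Nrp1* lie more than 1 log2 unit apart.

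The ligands gave mixed values. *Vegfa*, the principal factor of blood vessel growth, had signals of 646 in *Fbln5*-/- and 450.1 in WT at its brighter probe set, a log2 ratio of 0.52, whereas its dimmer probe set had 175 in *Fbln5*-/- and 192 in WT (−0.14). *Vegfb*, a ligand of VEGFR1, had 235 in *Fbln5*-/- and 415 in WT (−0.82). *Angpt2*, the context-dependent Tie2 ligand made by endothelium, had 357 in *Fbln5*-/- and 255 in WT (0.49), and its other probe set was under 100 on both arrays. *Angpt1*, the Tie2 agonist made by mural cells, was not measured, with 97.9 in *Fbln5*-/- and 72.9 in WT at its brighter probe set. Of the 4 ligands measured, 1 was at least 2-fold higher (*Vegfc*, above) and 0 were lower, beside 7.21% and 4.78% of all genes. The brightest *Vegfc* probe set was measured through the *Fbln5*-/- array alone, so only a higher value was open to it. The *Vegfc* probe set at 100 or more on both arrays had a log2 ratio of 0.39.

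Transcription factors of endothelium stayed within 2-fold. *Sox17*, a factor of arterial endothelium, had signals of 413 in *Fbln5*-/- and 268 in WT (log2 ratio 0.62), though its second probe set had 91.6 in *Fbln5*-/- and 101 in WT. *Sox18*, which acts upstream of *Prox1* in lymphatic development, had 666 in *Fbln5*-/- and 947 in WT (−0.51). *Ets1*, an ETS factor found in lymphocytes as well, had 1376 in *Fbln5*-/- and 1035 in WT at its brightest probe set (0.41) and 1108 in *Fbln5*-/- and 593 in WT at the next (0.90), and its other 2 were under 100 on both arrays. *Erg*, an ETS factor that maintains endothelial identity, had 154 in *Fbln5*-/- and 96.6 in WT (at least 1.54-fold higher). *Sox18* alone among the 4 was below 0.

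The 3 measured genes of haemostasis and vessel tone had a median log2 ratio of 0.47, and the 4 of leukocyte adhesion had 0.58, where all genes had 0.16. *Vwf*, von Willebrand factor, which endothelium stores in Weibel-Palade bodies, had signals of 773 in *Fbln5*-/- and 387 in WT at its only probe set, 1.996-fold higher and so just short of 2-fold. *Selp*, P-selectin of the same storage bodies, had 677 in *Fbln5*-/- and 397 in WT at its brightest probe set (log2 ratio 0.77), while another had 1.2 in *Fbln5*-/- and 111 in WT, at least 1.11-fold lower, and the last was under 100 on both arrays. Platelets hold both proteins. Of 5 platelet markers 3 were measured, with *Pf4* at a log2 ratio of 0.49, *Itga2b* at −0.32 and *Ppbp*, a chemokine not confined to platelets, at 2.01 (10032 in *Fbln5*-/- and 2497 in WT), and *Gp9* was under 100 on both arrays. The part of platelets in the values of *Vwf* and *Selp* was not tested.

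*Thbd*, thrombomodulin, the anticoagulant receptor of endothelium that keratinocytes also make, had signals of 1698 in *Fbln5*-/- and 1223 in WT (log2 ratio 0.47). *Nos3*, the endothelial nitric oxide synthase, had 465 in *Fbln5*-/- and 509 in WT (−0.13). *Ackr1*, the atypical chemokine receptor of venules, had 949 in *Fbln5*-/- and 575 in WT (0.72). The adhesion molecules *Icam1* and *Vcam1*, which cytokines induce, had 843 in *Fbln5*-/- and 642 in WT (0.39) and 547 in *Fbln5*-/- and 406 in WT (0.43), and the second *Vcam1* probe set had 175 in *Fbln5*-/- and 151 in WT (0.21). *Sele*, E-selectin, which appears on strongly activated endothelium, was under 100 on both arrays, with 35.5 in *Fbln5*-/- and 57.1 in WT. At their brightest probe sets, all 4 measured adhesion genes were above 0, where 63.6% of all genes were. None reached 2-fold in either direction, beside 7.21% of all genes upward and 4.78% downward.

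Probe sets of 1 gene give the only repeated measure within these arrays. Of the 69 probe sets of the 37 genes, 54 passed the filter. The ratio of the signals as measured was 2-fold or more upward at 4 of them (6.29% of all 19631) and downward at 5 (8.66%). Of these, 1 *Vcam1* probe set (105 in *Fbln5*-/- and 41.3 in WT) and the *Selp* probe set given above were under 100 on 1 array, with bounds of only 1.05-fold higher and 1.11-fold lower. Of the 13 members with several probe sets past the filter, 6 had all of them on the same side of 0 and 7 did not. At 100 or more on both arrays, the probe sets of 9 members had log2 ratios with a pooled SD of 0.46, near the 0.52 found over 4116 genes. This SD measures how far probe sets of a gene differ and does not cover the spread between animals.

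Promoter windows are shown for the genes past 2-fold, since these 5 set the contrast between higher and lower members. RefSeq windows of GRCm38.p6, running from 250 bases before to 50 after the gene start, were listed for 22 of the 37 genes, among them 4 of the 5 past 2-fold. ETS factors such as *Erg* and *Ets1* bind a GGAA core, and the letters AGGAAG or CGGAAG, which differ in their first base, were searched on both strands. They are in capitals below (CTTCCT and CTTCCG on the opposite strand), and a run with no capitals holds neither. Flt4 lies at chr11:49609429-49609728 (+ strand) and Vegfc at chr8:54077282-54077581 (+ strand), both higher in *Fbln5*-/- at their brightest probe sets. Cd34 lies at chr1:194938571-194938870 (+ strand) and Eng at chr2:32646345-32646644 (+ strand), both lower, *Cd34* at its only probe set and *Eng* at its brighter one.
Flt4: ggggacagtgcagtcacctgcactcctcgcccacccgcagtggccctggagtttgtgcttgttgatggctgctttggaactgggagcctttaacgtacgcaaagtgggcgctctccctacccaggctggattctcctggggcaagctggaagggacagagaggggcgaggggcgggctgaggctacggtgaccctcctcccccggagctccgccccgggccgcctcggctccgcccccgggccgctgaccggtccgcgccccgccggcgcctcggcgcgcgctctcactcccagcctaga
Vegfc: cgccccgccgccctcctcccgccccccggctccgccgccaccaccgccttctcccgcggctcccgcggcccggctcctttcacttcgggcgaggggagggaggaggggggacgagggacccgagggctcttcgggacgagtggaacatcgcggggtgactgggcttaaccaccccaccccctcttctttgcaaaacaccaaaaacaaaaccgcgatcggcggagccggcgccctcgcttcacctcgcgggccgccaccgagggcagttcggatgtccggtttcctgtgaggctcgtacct
Cd34: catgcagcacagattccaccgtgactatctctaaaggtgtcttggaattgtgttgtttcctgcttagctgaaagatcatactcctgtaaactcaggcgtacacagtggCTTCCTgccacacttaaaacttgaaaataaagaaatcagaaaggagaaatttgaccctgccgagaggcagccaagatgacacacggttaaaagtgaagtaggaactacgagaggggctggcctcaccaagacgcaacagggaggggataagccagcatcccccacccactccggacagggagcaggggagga
Eng: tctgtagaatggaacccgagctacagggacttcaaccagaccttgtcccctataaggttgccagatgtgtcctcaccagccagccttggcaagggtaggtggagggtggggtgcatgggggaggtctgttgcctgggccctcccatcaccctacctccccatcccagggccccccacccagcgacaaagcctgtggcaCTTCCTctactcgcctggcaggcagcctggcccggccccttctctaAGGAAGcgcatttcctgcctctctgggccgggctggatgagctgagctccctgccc

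*Cd34* held 1 match and *Eng* held 2, against 0 in *Flt4* and in *Vegfc*. The GGAA core with other letters around it does occur in the *Flt4* and *Vegfc* windows, so the 0 holds only for the letters searched. With so few windows, nothing is read from this difference. Of the 22 members' windows, 11 held at least 1 match (50.0%), with 46.4% of 27025 genes with a window beside it. The letters AGGAAG were in 50.0% of the members' windows and 35.1% of all windows, and CGGAAG in 4.55% and 17.2%. SOX letters (ACAATG or ACAAAG), also searched, were in 18.2% of the members' windows and 28.8% of all windows. The *Eng* window held 1 SOX match, and those of *Flt4*, *Vegfc* and *Cd34* held 0. A match is a description of the letters and not a bound site. The windows of *Flt4* and *Vegfc* had a GC content of 70.3% each, while that of *Cd34* had 50.0% and that of *Eng* 63.3%, with medians of 60.5% over the members and 52.7% over all windows.

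Other genes of endothelium, which are not members, were near the background as well. Of 44 listed, 37 were measured, with a median log2 ratio of 0.34. Of these, 2 were higher by 2-fold or more and 1 lower (5.41% and 2.70%, beside 7.21% and 4.78% of all genes). The 2 higher genes were *Sox7* (log2 ratio 1.77), a SoxF factor like *Sox17* and *Sox18*, and *Efnb2* (1.13), the ephrin of arterial endothelium. The lowest values among genes with no signal under 100 were those of *Acvrl1* (−0.93), the receptor that partners endoglin, and *Ephb4* (−0.74), the venous receptor for ephrin-B2. *Sox7* had signals of 3808 in *Fbln5*-/- and 1115 in WT at its measured probe set. The second *Acvrl1* probe set had a log2 ratio of 0.03. The 1 lower gene, *Rasip1*, had signals of 52.8 in *Fbln5*-/- and 177 in WT, a bound of at least 1.77-fold lower, and was not counted once signals under 100 were raised to 100. It was measured through the WT array alone, so only a lower value was open to it.

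Of 26 further ligands and regulators of angiogenesis, 22 were measured. Of these, 4 were higher by 2-fold or more and 2 lower (18.2% and 9.09%, beside 7.21% and 4.78% of all genes). The median log2 ratio of the 22 was 0.33, and −0.27 with the mean over the probe sets of each gene. The highest were *Ccn2* (2.62), a matrix protein of connective tissue growth, and *Egln3* (2.06), an oxygen-sensing prolyl hydroxylase that hypoxia induces. *Egln3* was higher at both of its probe sets (4.18-fold and 5.22-fold). The remaining pair were *Vegfd* and *Epas1* (HIF-2α, 1.04), the second probe set of which had a log2 ratio of −0.35. The lower genes were *Fgf1* (−1.15), an endothelial mitogen, and *Pgf*, the placental VEGFR1 ligand, with 12.3 in *Fbln5*-/- and 212 in WT (at least 2.12-fold lower). *Pgf* was measured through the WT array alone, so only a lower value was open to it. *Angptl4* had a log2 ratio of −0.83.

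Mural cells wrap the endothelium of small vessels. All 6 of their markers were measured. Of these, 2 were higher by 2-fold or more and 0 lower (33.3% and 0%, beside 7.21% and 4.78% of all genes). The median log2 ratio was 0.57. The sums, in which the brightest probe sets weigh most, were 10236 in *Fbln5*-/- and 5531 in WT. With the mean over probe sets or the second brightest probe set, 0 were higher and 1 was lower by 2-fold or more, and the median was 0.43 or 0.28. The lower gene was *Notch3*, which had a log2 ratio of 0.38 at its brightest probe set. Its other probe set had 97.6 in *Fbln5*-/- and 1143 in WT (at least 11.4-fold lower). *Rgs5*, a regulator of G-protein signalling in pericytes, had 4195 in *Fbln5*-/- and 1318 in WT at its brightest probe set (log2 ratio 1.67). Its second probe set had a log2 ratio of 0.81, and the next had 68.5 in *Fbln5*-/- and 112 in WT (at least 1.12-fold lower). *Abcc9*, a subunit of potassium channels, had 1.25, and *Cspg4* (NG2) had −0.80.

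**Figure D3:**
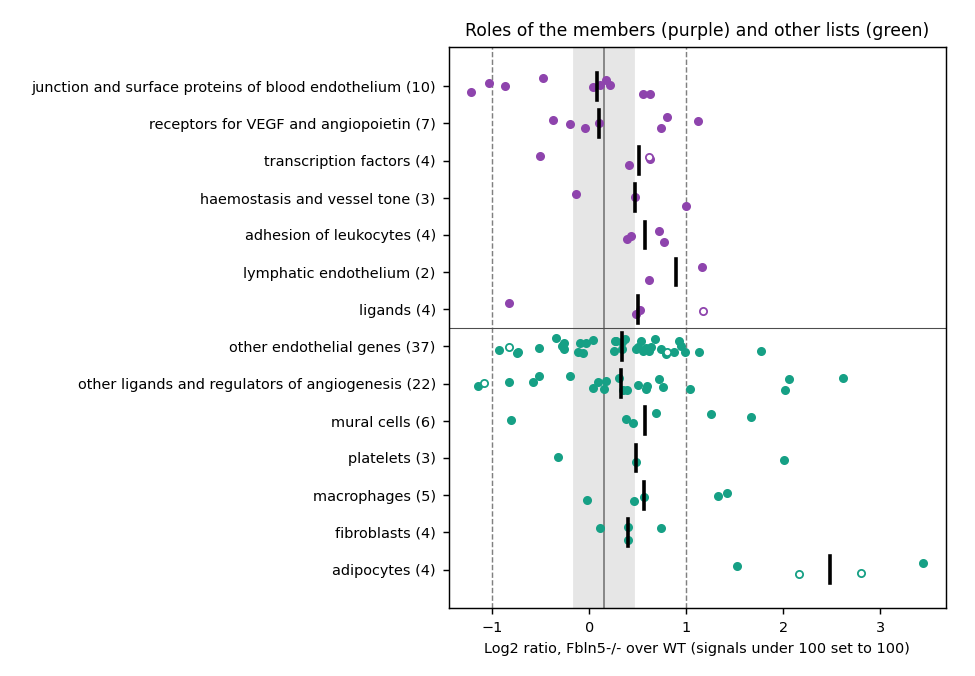
Log2 of the *Fbln5*-/- signal over the WT signal for measured members by role (purple) and for other lists (green), with signals under 100 set to 100 and the number of genes in parentheses. Open circles are genes under 100 on 1 array, black bars are medians, dashed lines mark 2-fold, and the grey line and band are the median and the middle quartiles of all genes. Surface proteins of blood endothelium (median 0.08) lie on both sides of 0, leukocyte adhesion genes (0.58) and the 2 lymphatic genes (0.89) lie above it, and the 4 adipocyte genes have the highest median of the groups shown (2.48).

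**Figure D4:**
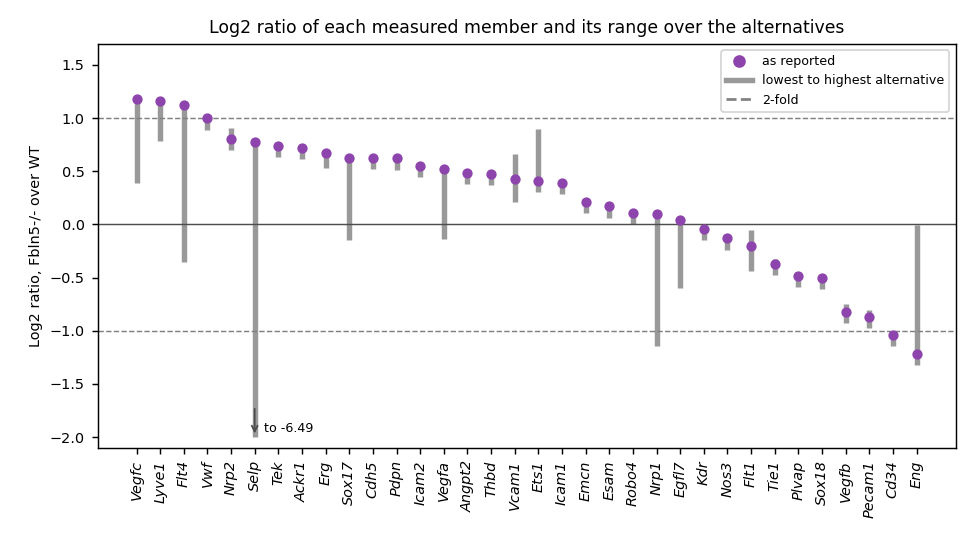
Log2 ratios of the *Fbln5*-/- array over the WT array for the 34 measured members as reported (points), in falling order, with the lowest and highest value over the processing alternatives (bars) and dashed lines at 2-fold. Bars are short where a gene has 1 probe set (*Cd34*, *Vwf*), and they are long where the probe sets of a gene differ (*Selp*, *Nrp1*, *Flt4*, *Eng*).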

How the data were processed

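The authors deposited MAS5 signal intensities for 45101 probe sets on a linear scale (Affymetrix mouse 430 2.0 arrays, 1 per genotype). The version of MAS5 is not given in the sources used here. Detection calls were not used, whereas the methods kept only probe sets called present or marginal. The scaling of each gene to its median over samples, also in the methods, was left out. Following the methods, each array was scaled to its 50th percentile (factors 1.03 for *Fbln5*-/- and 0.973 for WT), and probe sets under 100 on both arrays were left out, which removes dim genes from every count. A WT signal of 0 was set to 0.1. Of the deposited signals, 55.9% in *Fbln5*-/- and 54.8% in WT were under 100.

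Gene names came from the platform annotation of the probe sets (34945 with 1 gene symbol, control sets left out, 932 with several, 9211 not listed), and 34741 identifiers matched the GRCm38.p6 gene table. Where several probe sets named a gene, the brightest on average stood for it, and a 2-fold difference was counted. The number of arrays limits the precision. All 37 members were named, and *Fbln5*, *Gapdh* and *Actb* as checks. Of each other list, at most 4 genes were named by rule (the 2 highest and 2 lowest at 100 or more on both arrays). Names beyond that rule were given after their values were seen. They are the genes marked so above and *Csf1r*, *Adgre1*, *Notch3*, *Retn*, *Ucp1*, *Gp9*, *Rasip1*, *Epas1* and *Pgf*. Members and lists were chosen with earlier results of these data known. The steps were run on simulated arrays with planted changes larger than 2-fold, alike at all probe sets of a gene, in genes well above 100. This checks the code only and says nothing on calls near 2-fold or near 100. Alternatives were other scalings, filters, floors, pseudocounts, thresholds and choices of probe set. Python 3.11.15, numpy 2.4.6, pandas 2.3.3 and matplotlib 3.10.9 were used.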

Additional observations from a re-analysis of the deposited data

How the results depend on the processing

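With 1 array per genotype, the number of arrays limits every ratio, and the limit of 100 hides dim genes such as *Prox1*. No paired analysis was possible because each genotype has 1 array. Of 399 log2 ratios of members under alternatives, 386 moved by less than the spread of probe sets of a gene (0.52 on the log2 scale), and 13 moved further. This count is no measure of robustness. Rescaling an array by 1 factor shifts all log2 ratios together. For the 21 members with 1 probe set past the filter, no other probe set could be chosen. Of the 5 members past 2-fold, *Flt4* alone changed sign, with a log2 ratio of −0.36 at its second brightest probe set. Members within 2-fold that changed sign there were *Selp* (−6.49), *Nrp1* (−1.15), *Egfl7* (−0.60), *Sox17* (−0.14) and *Vegfa* (−0.14), and *Epas1*, which is not a member, had −0.35. The *Selp* value rests on signals of 1.2 in *Fbln5*-/- and 111 in WT. With signals under 100 set to 100, it was −0.15 at that probe set. The causes of these shifts were not tested.

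Counts of members were 0 higher at a 3-fold threshold, with the mean over probe sets and with the second brightest probe set (in place of 3), and 12 at 1.5-fold. They were 0 lower at 3-fold, 1 without _x_at, _s_at and _a_at probe sets and 4 at 1.5-fold (in place of 2). The members' median of 0.42 became 0.31 with the median ratio set to 1, 0.23 with the mean over probe sets and 0.14 with the second brightest. Over all genes, 861 higher and 571 lower became 2048 and 1535 without a filter, 316 and 211 at 3-fold and 2392 and 1240 at 1.5-fold. The lower count became 1072 with the second brightest probe set, and the median of 0.16 became 0.049 with the median ratio set to 1.

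For other endothelial genes, the higher count of 2 became 1 at 3-fold and 13 at 1.5-fold. The lower count of 1 became 0 with 100 on both arrays, 200 on 1 array, a floor of 100 or no _x_at, _s_at and _a_at sets. It became 4 at 1.5-fold and 2 with the deposited scale, the median ratio set to 1, no filter, the mean over probe sets or the second brightest. The median of 0.34 became 0.23 with the median ratio set to 1 and 0.15 with the mean over probe sets. For other ligands and regulators, 4 higher became 8 at 1.5-fold. Their 2 lower became 1 with 100 on both arrays, 32 added or 3-fold, 5 with the mean over probe sets and 6 with the second brightest. Their median log2 ratio of 0.33 became 0.23 with the median ratio set to 1, 0.21 without _x_at, _s_at and _a_at sets, −0.27 with the mean over probe sets and −0.54 with the second brightest.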
